A study of Mus musculus with 2 samples.

Results

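Imprinted genes are expressed mainly from the maternal or from the paternal copy, and they are described here by the candidate 5-formylcytosine (5fC) calls that lie in them. The set holds 32 genes in 18 imprinted domains, of 34614 protein-coding and long noncoding RNA genes on the chromosomes of the files. A called cytosine was assigned to a gene when it lay between the gene's start and end or within 2 kb on either side, in any sequence context and on either strand. This gave 38 of 28569 called cytosines in replicate 1 and 55 of 29650 in replicate 2, or 77 different positions of 46677.

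The study located 5fC at single cytosines of mouse embryonic stem cells, pluripotent cells of the early embryo kept in culture, with CLED-seq. In this method a biotin label is attached to the formyl group, labelled fragments are pulled down, and A3A, an APOBEC deaminase, converts cytosines that lack the label. A cytosine that is still sequenced as C is therefore a candidate 5fC. Both libraries are replicates of 1 group, with no treatment, no control library and no input library among the samples. The labels name neither the cell line, genotype, sex and culture medium nor separate cultures behind the replicates, and DNA reads alone did not allow a check of the cell type against expressed markers. A listed cytosine had at least 30 reads and a deposited adjusted p under 0.05. The level of a site is the share of its reads in which the C was kept, and this is a share among captured fragments, not of genomic copies. Cytosines that escaped deamination without carrying 5fC cannot be told apart from 5fC in these files, and reads were not split by parental allele.

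In imprinting, a differentially methylated region keeps 5-methylcytosine on the allele from a single parent, and this mark, set in the germ line, holds through early development and directs which copy of the neighbouring genes is transcribed. TET enzymes oxidise 5-methylcytosine stepwise to 5-hydroxymethylcytosine, 5fC and 5-carboxylcytosine, and the glycosylase TDG excises the last pair. In embryonic stem cells this oxidation pathway is active while imprinted regions are protected by ZFP57 and ZFP445, which bind the methylated allele and recruit TRIM28.

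Of the 32 genes, 22 held at least 1 called cytosine in either replicate, where 41.7% of all protein-coding and long noncoding RNA genes did. In replicate 1 the number was 18 (background 33.5%) and in replicate 2 it was 20 (background 34.2%), and 10 genes held a cytosine called in both replicates (background 18.0%). Overlapping genes are each counted here. Igf2r and Airn owe their shared call to the same position, and the sole call of Kcnq1ot1 also lies in Kcnq1. The imprinted genes were long, with a median length of 38.9 kb against 12.8 kb over all genes. Among genes of at least 100 kb, all 7 imprinted genes and 88.2% of 2710 genes held a site in either replicate. From 50 to 100 kb, 5 of 6 imprinted genes and 68.9% of 3149 genes did, from 10 to 50 kb 6 of 11 and 46.5% of 13729, and below 10 kb 4 of 8 and 23.2% of 15026. For a site in both replicates the numbers, from the longest band to the shortest, were 6 of 7 imprinted genes beside 55.2% of all genes, 2 of 6 beside 32.8%, 1 of 11 beside 18.6% and 1 of 8 beside 7.75%. For a site in either replicate, the members' share lay above that of all genes in every band. For a site in both replicates it lay below from 10 to 50 kb, where 1 gene counts, and above or close in the other bands. These counts describe the list and were not tested against others. With the flank left out, 17 genes held a site. The 4 members below 10 kb with a call, Phlda2, Mcts2, Nnat and Zrsr1, held it in a flank only.

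The calls were spread unevenly over the domains. The Trappc9-Kcnk9 domain held 22 of the 77 positions, the Igf2r-Airn and Kcnq1 domains 10 each, Gnas 8, Dlk1-Meg3 6 and Grb10 4. Plagl1 and Zdbf2 held 3 each, the H19-Igf2, Impact and Snrpn-Ndn domains 2 each, and Inpp5f, Mcts2, Nnat, Peg3-Usp29 and Zrsr1 1 each. In the Mest and Peg10-Sgce domains 0 positions were listed. Over the joined spans of the members there were 29.3 positions per Mb, and 26.5 without Trappc9, beside 23.1 over all protein-coding and long noncoding RNA genes. Snrpn, at 468 kb about as long as Trappc9 (472 kb), held 0.42 positions per 100 kb against 4.21 in Trappc9. Cytosines below 30 reads are not listed, so coverage of these genes could not be compared. Of the 77 positions, 71 lay inside a member gene and 6 in a flank. Overlapping genes share 6 positions, 5 between Igf2r and Airn and 1 between Kcnq1 and Kcnq1ot1, and each is counted once in its domain.

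**Figure D1:**
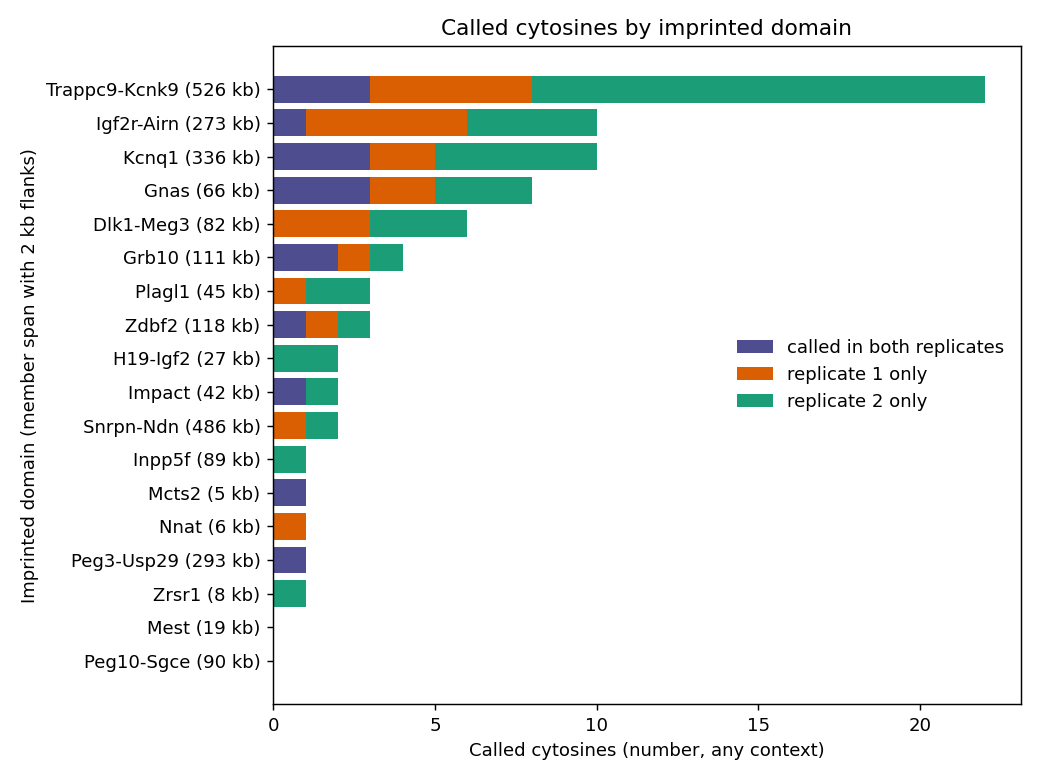
Number of called cytosines (x axis) in each of the 18 imprinted domains (y axis, with the joined span of its members and their 2 kb flanks), coloured by whether a position was called in both replicates or in 1. Trappc9-Kcnk9 leads with 22 positions, and 14 of these were called in replicate 2 only.

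CG cytosines, the context in which mammalian methylation and its oxidised forms mainly occur, made up 7 of 38 calls in replicate 1 (18.4%, 95% Wilson interval 9.22 to 33.4) and 7 of 55 in replicate 2 (12.7%, 6.30 to 24.0). Over all called cytosines the shares were 8.01% and 8.20%, and over those in any protein-coding or long noncoding RNA gene 8.84% and 9.01%. The interval of replicate 2 includes both of its shares. That of replicate 1 includes neither, but its lower bound of 9.22 lies close to the share in genes. Intervals cover counting error only, since sites of a library are not replicates. The 11 different CG positions lay in 6 genes, Grb10, Gnas, Usp29, Trappc9, Rtl1 and Nnat (background for a CG site in either replicate 7.80%), and 3 of them, in Grb10 and Usp29, were called in both replicates (2 of 32 genes, background 2.42%). These backgrounds were not adjusted for gene length, whose median is higher in the members.

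Grb10 encodes an adaptor protein that restrains insulin and growth factor receptor signalling, and it is expressed from the maternal copy in most tissues and from the paternal copy in neurons. It lies on chromosome 11 from 11930499 to 12037428 on the minus strand. The CG at position 12025960 kept the C in 23 of 42 reads in replicate 1 and in 23 of 42 in replicate 2, a level of 54.8% (39.9 to 68.8) in both. The CG at 12036869 kept it in 24 of 31 reads in each, 77.4% (60.2 to 88.6). Both lay on the strand of the gene, 2011 bp and 551 bp from the nearest Grb10 start site in the RefSeq promoter table, so that the shared CG calls of this gene sit towards its 5′ end. A further CG at 12032917, on the other strand, was listed in replicate 1 only, with 29 of 31 reads (93.5%), and a CTG cytosine at 12018899 in replicate 2 only, with 31 of 31 reads (100%, lower bound 89.0%). All 4 positions lay in the part of the gene nearest to its promoters, within 9072 bp of a listed start site.

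Usp29, a paternally expressed deubiquitinase gene, shares a bidirectional promoter with Peg3, a zinc finger gene that influences growth and maternal behaviour. Its CG at chromosome 7 position 6956392 kept the C in 23 of 33 reads in both replicates (69.7%, 52.7 to 82.6). The position lies 225809 bp from the shared promoter, near the far end of the 237 kb gene and also inside the noncoding RNA gene Zim3. It was the sole call in the domain, and Peg3 and Zim1, a maternally expressed zinc finger gene, had 0.

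Gnas encodes the stimulatory G protein alpha subunit and, from alternative promoters, the maternally expressed Nesp55 and the paternally expressed XLαs. It lies on chromosome 2 from 174284320 to 174346744, and it held 12.0 positions per 100 kb, above every other member longer than 10 kb. The cytosine at 174286394, in the CAC context, kept the C in 37 of 41 reads in both replicates (90.2%). Those at 174295471 and 174296171 stood at 9 of 38 reads (23.7%) and 10 of 34 reads (29.4%), again in both. The 3 shared calls, none of them CG, thus had the same counts in both libraries, at 1 high and 2 low levels.

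The 3 CG calls of Gnas were each listed in 1 replicate. At 174285769 replicate 2 had 12 of 31 reads (38.7%), at 174296643 replicate 1 had 12 of 34 (35.3%), and at 174330457 replicate 2 had 23 of 36 (63.9%). The last lay 451 bp from a listed Gnas start site. Position 174285769, the shared CAC cytosine and a CTA cytosine at 174289422 (31 of 33 reads, 93.9%, replicate 2) also lie inside Gnasas1, the antisense RNA also called Nespas, and all 3 are on the minus strand. A CTG cytosine at 174345172, near the 3′ end, had 13 of 34 reads (38.2%) in replicate 1.

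**Figure D2:**
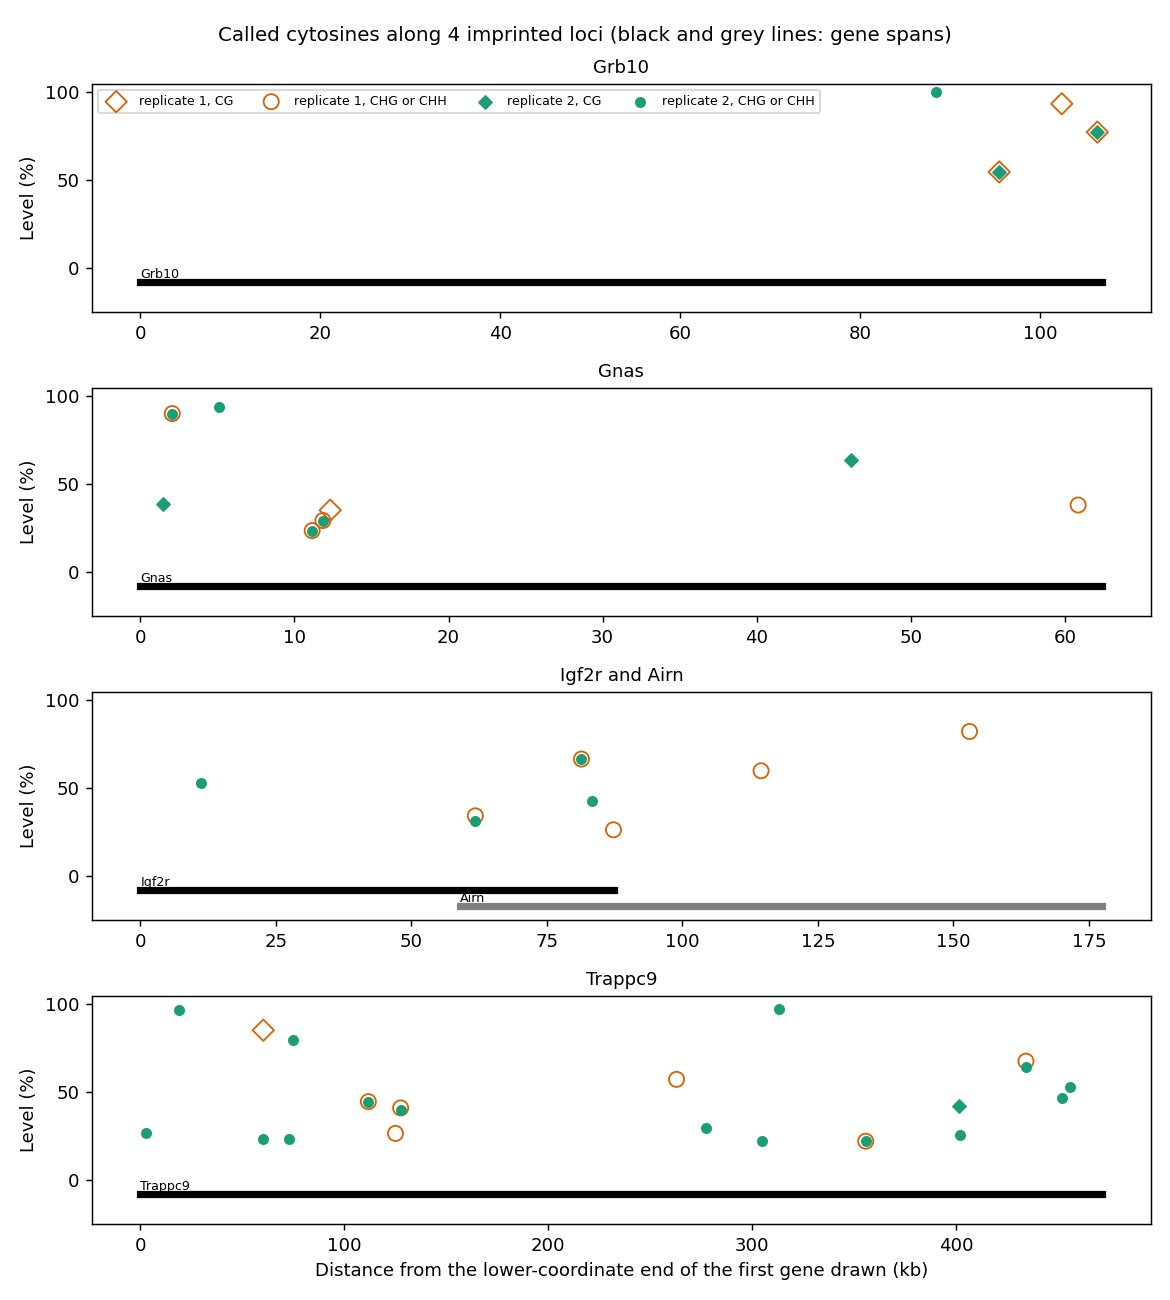
Level of each called cytosine (y axis, percent of reads that kept the C) along Grb10, Gnas, Igf2r with Airn, and Trappc9 (x axis, kb from the lower-coordinate end), with open orange symbols for replicate 1, filled green for replicate 2 and diamonds for CG. Concentric symbols are calls with the same position in both replicates, such as the 54.8% and 77.4% CG calls of Grb10. Calls in Trappc9 run along most of its 472 kb, with a stretch without calls between 72717252 and 72852495.

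Calls fell within the RefSeq promoter windows (250 bases before to 50 after a start site, build GRCm38.p6) of 3 members, Nnat, Igf2r and Zrsr1. Of 36 windows listed for 23 of the members, 3 (8.33%) held a call, against 2.73% of 32815 windows over all genes, and each was called in 1 replicate. The member windows also held more CG dinucleotides, a median of 14.5 against 7. The 29 bases around each called cytosine are shown because they give the base context of the promoter calls, on the strand of that cytosine, with capitals for the cytosine and the following 2 bases.
Nnat, chr2:157559893-157559921, plus strand: ccgaatttcaaaagCGGgcagagcagaat
Igf2r, chr17:12769679-12769707, plus strand: gaggcgctccgtggCCGtccccggagcgt
Zrsr1, chr11:22971952-22971980, minus strand: agtacgatttactgCTTtttttgtctccg
At all 883 positions of the series whose 3 bases could be read from such a window, the RefSeq bases matched the listed ones. Whether a call lay in an exon, an intron or a UTR was not analysed here.

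Nnat, which encodes the small membrane proteolipid neuronatin and is paternally expressed from an intron of Blcap, had its CG at 157559907, 171 bp before the start, listed in replicate 1 with 11 of 34 reads (32.4%, 19.1 to 49.2). The Igf2r cytosine at 12769693, 13 bp past the start, is in the CCG context and was listed in replicate 1 with 14 of 53 reads (26.4%, 16.4 to 39.6). Zrsr1, a paternally expressed splicing factor gene inside Commd1, had the cytosine at 22971966, 39 bp before its start, in replicate 2 with 18 of 36 reads (50%). Of these 3 promoter calls only that of Nnat was in CG.

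In the Igf2r domain on chromosome 17, Igf2r encodes the maternally expressed receptor that clears IGF2, and Airn is the paternally transcribed noncoding RNA that starts inside it and silences Igf2r, and Slc22a3 in the placenta. The CAG cytosine at 12763792, inside both Igf2r and Airn, kept the C in 20 of 30 reads in both replicates (66.7%, 48.8 to 80.8). It was the sole shared call of the domain, and 0 of the 10 positions were CG. Beyond the overlap, Airn held 2 calls in replicate 1 at 60% and 82.4%, and Igf2r 1 in replicate 2 at 53.1%. Slc22a3, an organic cation transporter gene, had 30 of 31 reads (96.8%) at 12435712 in replicate 1 and 25 of 30 (83.3%) at 12489929 in replicate 2. The Airn promoter window held 0 calls, and the nearest positions were 2798 and 2904 bp away.

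The Kcnq1 domain on chromosome 7 holds Kcnq1, a voltage-gated potassium channel gene, Kcnq1ot1, the antisense RNA transcribed from the paternal copy, and the maternally expressed growth restrainers Cdkn1c and Phlda2. All 10 positions were outside CG. Kcnq1 at 143111719 stood at 17 of 33 reads (51.5%) in both replicates. At 143319652 it stood at 58 of 63 reads in replicate 1 (92.1%) and 28 of 31 in replicate 2 (90.3%). At 143192632 the number of reads that kept the C was 13 in both replicates, but the depth was 68 reads in replicate 1 and 31 in replicate 2, so that the level was 19.1% (11.5 to 30.0) and 41.9% (26.4 to 59.2). The 2 Kcnq1 sites with the most reads in replicate 1 thus had close to the minimum depth in replicate 2.

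Of the other Kcnq1 positions, 143174373 (CTG) had 31 of 31 reads in replicate 2 (lower bound 89.0%), and the rest lay between 41.2% and 90.9%. The position that Kcnq1 shares with Kcnq1ot1, 143253763, was listed in replicate 1 with 36 of 47 reads (76.6%), 42784 bp from the Kcnq1ot1 start site, whose promoter window held 0 calls. Phlda2 had 1 call in its flank, in replicate 2, with 14 of 36 reads (38.9%), and Cdkn1c, a cell cycle inhibitor gene, had 0.

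The Dlk1-Meg3 domain on chromosome 12 holds the paternally expressed Dlk1, a Notch-like ligand, and Rtl1, a retrotransposon-derived placental gene, beside the maternally expressed noncoding RNA Meg3 and a cluster of microRNAs. Its 6 positions lay in Meg3 and Rtl1, and 0 were listed in both replicates. In Meg3, replicate 1 had 12 of 45 reads at 109542506 (26.7%), 1510 bp past the start, and replicate 2 had 20 of 53 at 109559685 (37.7%). The CG call of Rtl1, at 109592039, had 7 of 31 reads in replicate 2 (22.6%, 11.4 to 39.8), and 7 is the smallest number of kept reads at any listed site.

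The Rtl1 cytosine at 109590510, with 25 of 37 reads in replicate 2 (67.6%, 51.5 to 80.4), lies in the hairpin of Mir431, which is transcribed antisense to Rtl1. It was singled out after its values were seen, as the member site inside a microRNA. It is base 9 of the mature miR-431-3p, whose RefSeq sequence is shown with the seed (bases 2 to 8) in capitals.
miR-431-3p, chr12:109590502-109590523, plus strand: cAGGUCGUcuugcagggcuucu
The cytosine directly follows the seed. In replicate 1 the position was not listed, and a cytosine 119 bp away on the other strand, at 109590391 and outside the hairpin, had 25 of 36 reads (69.4%).

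Trappc9 encodes a subunit of a vesicle-tethering complex, and Kcnk9 a potassium leak channel; both are expressed mainly from the maternal copy in brain. Trappc9, on chromosome 15 from 72589620 to 73061238, held 20 positions, 7 of them called in replicate 1 and 16 in replicate 2. The whole libraries, with 28569 and 29650 calls, were closer to each other. The shared calls were at 72701412 with 17 of 38 reads in both (44.7%), at 72717252 with 14 of 34 and 14 of 35 (41.2% and 40%), and at 72945228 with 8 of 36 in both (22.2%). All 3 were outside CG and below 50%.

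The CG calls of Trappc9 were at 72649917, with 35 of 41 reads in replicate 1 (85.4%, 71.6 to 93.1), and at 72990885, with 14 of 33 in replicate 2 (42.4%, 27.2 to 59.2). A CAG cytosine at 72852495 had 31 of 54 reads in replicate 1 (57.4%). Across the gene, levels ran from 22.2% to 97.7%. Kcnk9 had 31 of 40 reads at 72545429 in replicate 1 (77.5%) and 31 of 39 at 72545338 in replicate 2 (79.5%), 91 bp apart.

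Among the remaining genes, Zdbf2, a paternally expressed gene linked to growth after birth, had the CCA cytosine at chromosome 1 position 63297325 at 32 of 45 reads in replicate 1 (71.1%) and 32 of 46 in replicate 2 (69.6%). Impact, a translation regulator gene on chromosome 18, had 18 of 37 reads at 12961617 in both (48.6%). Mcts2, a retrogene within H13, had 9 of 33 and 9 of 35 reads at chromosome 2 position 152688813 (27.3% and 25.7%), 867 bp past its end. These 3 shared calls were outside CG, and their levels differed by less than 2 points between the libraries.

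The other calls in these genes were listed in 1 replicate and lay outside CG. Zdbf2 had 2 more, at 37.1% in replicate 1 and 59.0% in replicate 2, and Impact 1 more, at 80.6% in replicate 2. Plagl1, a zinc finger growth regulator gene, had 3 between 33.3% and 37.5%. Igf2, the paternally expressed growth factor gene, had 2 in replicate 2, at 44.2% and 56.7%, both in its upstream flank and inside the antisense gene Igf2os. Snrpn, a splicing factor gene of the Prader-Willi region, had 1 at 80% in replicate 1 and 1 at 53.3% in replicate 2, and the phosphoinositide phosphatase gene Inpp5f had 1 at 21.4% in replicate 2.

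In 10 genes no called cytosine was listed: H19, Cdkn1c, Dlk1, Peg3, Zim1, Peg10, Sgce, Mest, Ndn and Magel2. They were shorter, with a median length of 12.0 kb against 72.9 kb in the genes with a call. The nearest call lay 3614 bp from Dlk1, 4261 bp from Mest, 5590 bp from Ndn and 8550 bp from H19, the noncoding RNA gene next to Igf2, and farther than 10 kb from the other 6. The nearest calls of 3 genes were listed in both replicates, that of Ndn with 25 of 37 and 23 of 35 reads (67.6% and 65.7%), that of Sgce with 33 of 34 and 32 of 34 (97.1% and 94.1%) and that of Cdkn1c with 27 of 36 in both (75%). Since uncalled cytosines are not listed, a gene with 0 calls may have been covered without a call or not covered at 30 reads, and these cannot be told apart.

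The median level of member calls was 53.1% in replicate 1 (range 19.1% to 96.8%) and 50% in replicate 2 (21.4% to 100%), beside 46.7% and 46.2% over all calls. At the CG calls of the members it was 69.7% and 54.8%, and at the other calls 48.6% and 49.3%, over 7 CG sites in each library. Of these CG sites, 3 were the same positions with the same counts in both libraries. Over all calls the medians were 45.2% and 45.5% at CG and 46.7% and 46.3% outside CG. A level of 80% or more was reached by 7 and 11 member calls, 18.4% and 20%, beside 22.0% and 21.5% over all calls. Depth was low throughout, with medians of 34 and 33 reads, and at that depth a level of about 50% carries an interval more than 30 points wide, as at Kcnq1 143141935 with 17 of 34 reads (50%, 34.1 to 65.9). The trinucleotide CAG made up 9 of the 38 calls in replicate 1 (23.7%) and 7 of the 55 in replicate 2 (12.7%), beside 12.0% and 11.6% over all calls, so the members exceeded the overall share in replicate 1 and lay near it in replicate 2.

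**Figure D3:**
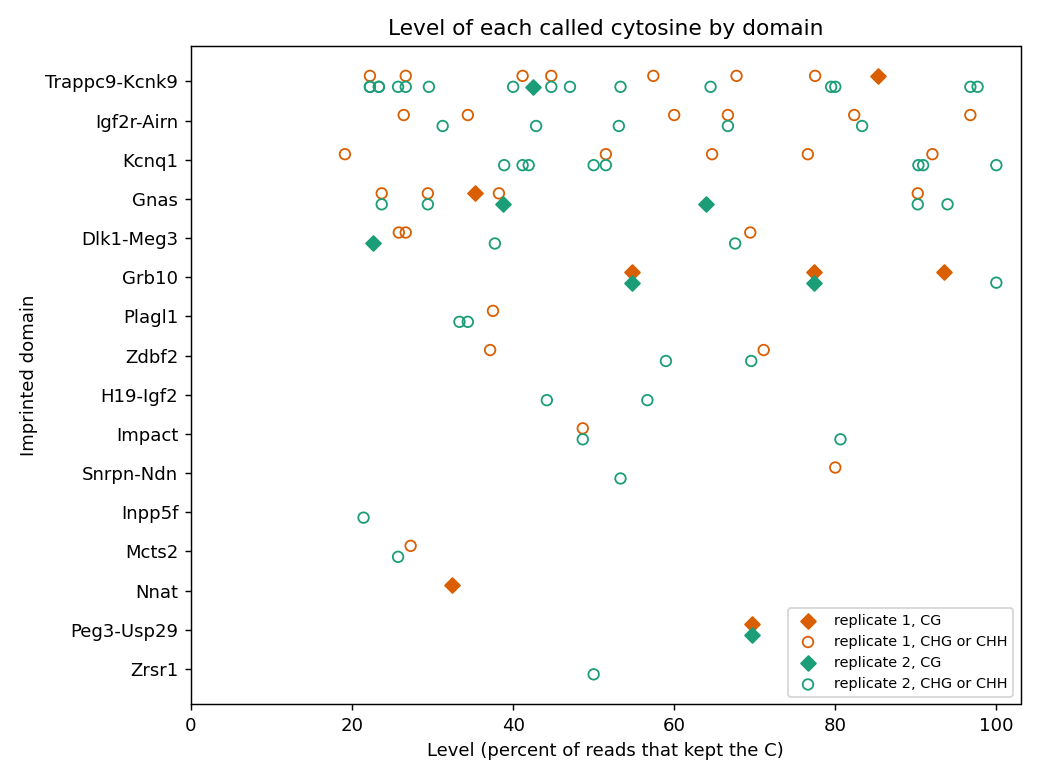
Level of each called cytosine (x axis, percent of reads that kept the C) by imprinted domain (y axis), with orange for replicate 1, green for replicate 2, filled diamonds for CG and open circles for other contexts. Grb10 calls lie at or above 54.8%, Plagl1 calls between 33.3% and 37.5%, and Trappc9-Kcnk9 calls run from 22.2% to 97.7%.

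The replicates shared 16 of the 77 member positions, 42.1% of the calls in replicate 1 and 29.1% of those in replicate 2, beside 40.4% and 38.9% over all calls. The counts of kept and lost reads were identical at 11 of the 16 (68.8%, 44.4 to 85.8) and at 70.6% of the 11542 shared sites of the series. Fisher's exact test (two-sided, Benjamini-Hochberg over all shared sites) called 0 of the 16 different between replicates, and 3 of all 11542 (0.0260%). At an unadjusted p under 0.05 there was 1 of the 16 member sites, Kcnq1 143192632 (p = 0.0258, adjusted p = 1 by Fisher's exact test). Over the series it was 27 of the 11542 shared sites. A chi-square test with continuity correction also called 0 of the 16. A chi-square divided by its degrees of freedom is about 1 under sampling noise alone. It was 0.366 over the 16 member sites, most of it from Kcnq1 143192632, and 0.0611 over the shared sites of the series. At the shared sites the libraries thus differed by less than sampling noise. Shared sites therefore count as 1 sample, and the agreement is not independent evidence for a level.

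**Figure D4:**
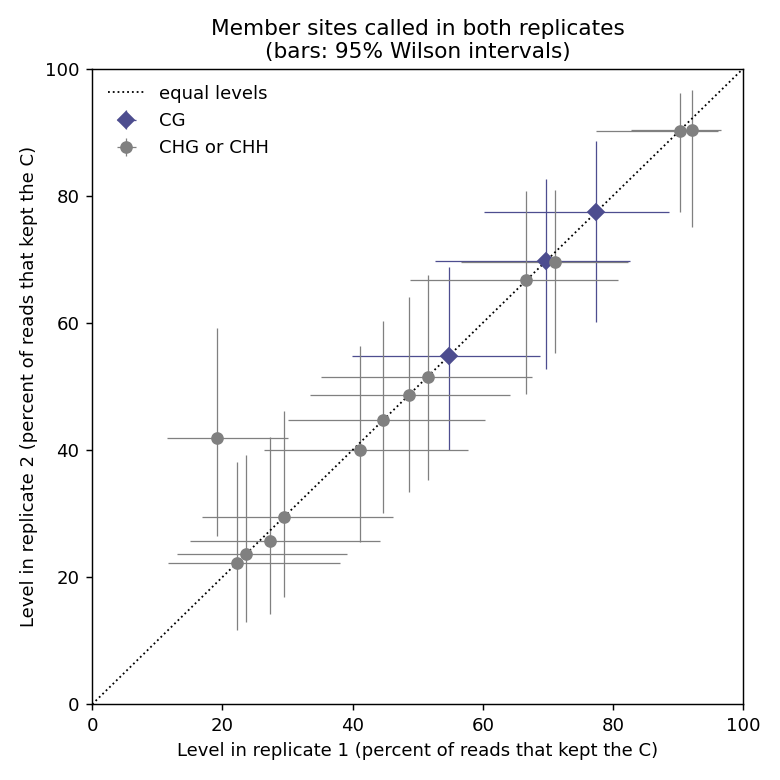
Level in replicate 1 (x axis) against replicate 2 (y axis), in percent of reads that kept the C, at the 16 member sites called in both, with 95% Wilson intervals and diamonds for CG. Of the 16 points, 15 lie on or close to the line of equal levels, and Kcnq1 143192632 stands off it at 19.1% and 41.9%.

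Some positions listed in 1 library had a counterpart nearby in the other with nearly the same counts (kept and lost reads each within 1 read, at most 150 bp apart). This held for 5 of the 22 member positions that replicate 1 alone listed (22.7%, 10.1 to 43.4) and for 5 of the 39 of replicate 2 (12.8%, 5.60 to 26.7), beside 20.8% and 19.6% over the series. The pairs were those of Rtl1 and Mir431 above, a second pair in Rtl1 (8 of 31 reads at 109592137 against the 7 of 31 at the CG 109592039, 98 bp apart), the Kcnk9 pair, a pair in Trappc9 (21 of 31 at 73023771 and 20 of 31 at 73023679, 92 bp apart) and a pair in the overlap of Igf2r and Airn (11 of 32 at 12744215 and 10 of 32 at 12744109, 106 bp apart). The 2 pairs in Rtl1 were on opposite strands and in different contexts, so the CG context of its call rests on the position in replicate 2. Whether paired positions mark the same fragments was not tested. Counting each pair once left 72 positions.

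Other imprinted genes, on a list of 42 of which 41 were matched by symbol, held calls about as often. The numbers were 28 in either replicate (68.3%), 12 in both (29.3%) and 3 with a shared CG (7.32%). Over all protein-coding and long noncoding RNA genes the shares were 41.7%, 18.0% and 2.42%. The unmatched symbol was Nespas, which RefSeq lists as Gnasas1. It is left out of these numbers, although it holds positions counted above for Gnas, among them the shared CAC cytosine at 174286394. The 41 matched genes had a median length of 38.7 kb, and 5 of them (H13, Blcap, Gpr1, Slc22a18 and Commd1) hold positions also counted for members. The shared CG calls were in H13, a signal peptide peptidase gene, at 27 of 35 reads in both replicates (77.1%), in Ago2, which encodes the Argonaute protein of RNA silencing and lies on chromosome 15 beyond Trappc9 and Chrac1, at 33 of 43 in both (76.7%), and in the adaptor gene Gab1 at 12 of 36 in both (33.3%). Gab1 had the most shared calls, 4, from 33.3% to 87.5%, and Begain and Cobl, named in alphabetical order from those tied at 2, had levels of 54.5% to 65.7% and of 24.2% to 94.9%.

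Regulators of imprints, a list of 23 genes with a median length of 38.3 kb, held calls in 16 genes in either replicate (background 41.7%). In both replicates 9 genes held a call (39.1%, background 18.0%), and 1 had a shared CG (4.35%, background 2.42%). That gene was Dnmt3a, a DNA methyltransferase that sets germ line imprints, with 22 of 31 reads at the CG at chromosome 12 position 3836458 in both replicates (71.0%). Its 2 other shared calls stood at 78.1% in both and at 41.5% and 46.2%. Dnmt3l, its cofactor, had 23 of 43 reads in both (53.5%), and Arid4b 9 of 32 in both (28.1%). Ctcf, the insulator protein gene that acts at H19 and Igf2, had 39 of 64 and 39 of 62 (60.9% and 62.9%) at a position in its flank. These 3 genes were named in alphabetical order from those tied at 1 shared call. The shares of genes with a call were thus close in the 3 lists, at 68.8%, 68.3% and 69.6%, and all above the share over all genes, whose median length is lower.

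**Figure D5:**
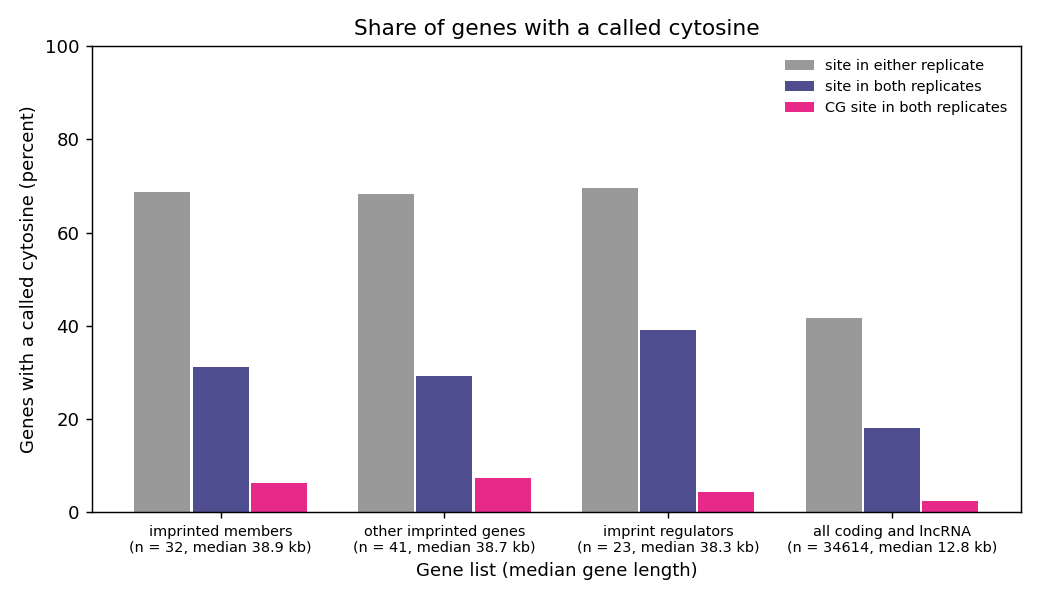
Percent of genes with a called cytosine (y axis) in the imprinted genes, the other imprinted genes, the imprint regulators and all protein-coding and long noncoding RNA genes (x axis, with number and median length), for a site in either replicate, in both, and a CG site in both. The 3 lists stand at 68.8%, 68.3% and 69.6% for either replicate, against 41.7% over all genes, which have a median length of 12.8 kb.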

How the data were processed

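The 2 replicate libraries were made from sheared DNA that was biotin-labelled, captured, deaminated and amplified, per the labels' protocols. Bismark 0.23.1 and Bowtie2 2.4.5 stand in the submitters' processing notes beside SAMtools, mm10, FastQC 0.11.9 and cutadapt 4.1, without roles. Removal of duplicate reads was not given in the sources used here. Per the file headers, the authors deposited raw counts of reads that kept and lost the C at each called cytosine. They also deposited p-values with Holm and Benjamini-Hochberg adjustment. Cytosines below 30 reads or above an adjusted p of 0.05 are not listed.

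Positions were matched by chromosome, position and strand, and assigned to RefSeq gene spans (GRCm38, the build of mm10) with 2 kb flanks. Sequences are from RefSeq tables of GRCm38.p6. Fisher's exact test compared the replicates at shared sites. It was checked on simulated data in which the reads of the 2 libraries were drawn independently. At shared sites the deposited libraries differed by less than sampling noise, so that check does not show how the test behaves on them. Wilson intervals (95%) cover counting error only, since PCR reads cannot be taken as independent molecules. The members and lists were chosen with earlier results of these data known. Named were all members with a call, all shared and all CG positions, other positions with at least 50 reads or a level of 100%, and from the 2 further lists genes with a shared CG call and up to 4 with the most shared calls. Some other positions listed in a single replicate, as in Gnas and Slc22a3, were named outside this rule. Length bands and partner positions were chosen after seeing the data. Alternatives were other flanks, depth, p and level minimums, each replicate alone and a chi-square test. Scripts ran under Python 3.11.15 (scipy 1.17.1, pandas 2.3.3, numpy 2.4.6).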

Additional observations from a re-analysis of the deposited data

How the results depend on the processing

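Of 41 alternatives, 32 left a value within the SD of the replicates or within 1.5 times of a count, and 9 moved it. Leaving out a replicate cannot move a median level or a CG share past that SD by construction. At a depth of at least 40 reads, 16 positions in 12 genes remained, 3 of them shared, with a median level of 60.3%. With a Holm adjusted p under 0.05 there were 47 positions, 10 shared, and the median level was 67.5%; with a Benjamini-Hochberg value under 0.01 it was 55.3%, against 51.6% as the mean of the replicates. Stricter p-values remove low levels by construction. With each replicate alone, 38 to 55 positions were listed. Counting partners once was chosen after seeing the data. No paired analysis was possible because there is 1 group. Depth close to the minimum of 30 reads limits all levels.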
